A study of Mus musculus with 27 samples.

Results

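In 1 of 6 medulloblastoma allografts, a tumour that had become resistant to NVP-LDE225, a stretch of mouse chromosome 15 with Deptor, Sqle and Myc was present at raised DNA copy number. The stretch was examined with all probes of an Agilent mouse array for comparative genomic hybridization (CGH) that lie on chromosome 15 in build mm8. Of 232419 probes with a value on all 6 arrays, 9162 lay on this chromosome, and 1415 of them lay inside 3 adjoining gains. The gains were chosen from the measured log2 ratios of the tumour at 80 mg/kg/day, so their levels in that tumour, and its distance from the other 5 tumours, are given as a description without a test.

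All 6 tumours were grown in nude mice, which lack T cells, from medulloblastoma of Ptch+/-p53-/- mice, and all were collected on day 26 of treatment. The 3 vehicle tumours (vehicle 1, 2 and 3) were labelled sensitive. The resistant tumours had received NVP-LDE225, an antagonist of the Hedgehog pathway protein Smo, split over 2 administrations a day. The daily doses were 40, 80 and 160 mg/kg, with 1 tumour for each dose. The title and source name of the tumour at 160 mg/kg/day say vehicle, while its status, treatment and dose entries say resistant, and it was used as resistant. Every array set tumour DNA in Cy5 against 1 wild-type mouse liver DNA in Cy3, so a log2 ratio of 0 is the level of most autosomal DNA in that tumour and a positive value means more tumour DNA. No label says whether the allografts came from 1 donor tumour. With 1 tumour per dose, a difference at 80 mg/kg/day cannot be told apart from a difference of that single tumour, and tumour cells that carry the gain cannot be told apart from the number of copies per cell.

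On chromosome 15, at least 99.9% of spots were well above background on each array, and 0 spots were saturated. Over all measured chromosomes, the SD between neighbouring probes was estimated from the median absolute deviation of their differences. This SD was 0.13, 0.20 and 0.18 in vehicle tumours 1, 2 and 3. It was 0.32 at 40 mg/kg/day, 0.28 at 80 mg/kg/day and 0.46 at 160 mg/kg/day. A single probe of a resistant tumour is therefore a weak measurement, and the levels below are means over probes of a gene or a stretch.

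Myc encodes a transcription factor that drives growth and division, and extra copies of its human counterpart occur in some medulloblastomas. Sqle encodes squalene epoxidase, an enzyme of the cholesterol pathway, on whose products the Hedgehog pathway protein Smo depends. Deptor encodes a protein that binds and restrains the kinase mTOR. The mouse genes keep, over several megabases, much of the order they have around MYC on the human chromosome.

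The gained stretch ran over 17.2 Mb, from chr15:50960187 to chr15:68162626, and had 3 levels with the highest in the middle. With normexp background correction the first and the second gain could not be ordered, at 0.27 each above the other 5 tumours. Over the 3 gains together the mean log2 ratio was -0.034, -0.022 and -0.018 in vehicle tumours 1, 2 and 3, -0.012 at 40 mg/kg/day, 0.013 at 160 mg/kg/day and 0.50 at 80 mg/kg/day. Only the tumour at 80 mg/kg/day stood apart, and the other 5 lay within 0.034 of 0. No chromosome 15 segment was called gained or lost in any of those 5, where a call needed a mean of at least 0.3 in size over at least 5 probes. In the genome as a whole the tumour at 80 mg/kg/day had 22 called autosomal gains, and those of chromosome 15 ranked 6, 10 and 17 by mean log2.

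The first gain, with Deptor, covered chr15:50960187-57550144 (6.59 Mb, 543 probes). Its level at 80 mg/kg/day was 0.49 (SD over probes 0.29), against -0.043 ± 0.011 (SD, n = 5) in the other tumours. The second gain, with Sqle, covered chr15:57559815-60352961 (2.79 Mb, 265 probes) and reached 0.72 (SD over probes 0.31), against 0.054 ± 0.026 (SD, n = 5). The third gain, with Myc, covered chr15:60387391-68162626 (7.78 Mb, 607 probes) and stood at 0.42 (SD over probes 0.28), against -0.019 ± 0.023 (SD, n = 5). The differences from the mean of the other 5 were 0.53, 0.67 and 0.44. Against the vehicle tumours alone they were 0.54, 0.68 and 0.46, and against the other 2 resistant tumours 0.52, 0.66 and 0.42, so the choice of comparison tumours moved them little. Of the probes in the first, the second and the third gain, 73.5%, 94.3% and 67.2% were at or above 0.3 at 80 mg/kg/day. At 160 mg/kg/day 24.3%, 32.8% and 28.7% of the same probes were, and at 40 mg/kg/day 14.7%, 19.6% and 17.3%. In the vehicle tumours these shares were between 1.1% and 11.3%. Over all probes of the chromosome the share was 26.7% at 80 mg/kg/day, 26.5% at 160 mg/kg/day and 16.8% at 40 mg/kg/day. In vehicle tumours 1, 2 and 3 it was 3.5%, 8.6% and 7.5%.

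**Figure D1:**
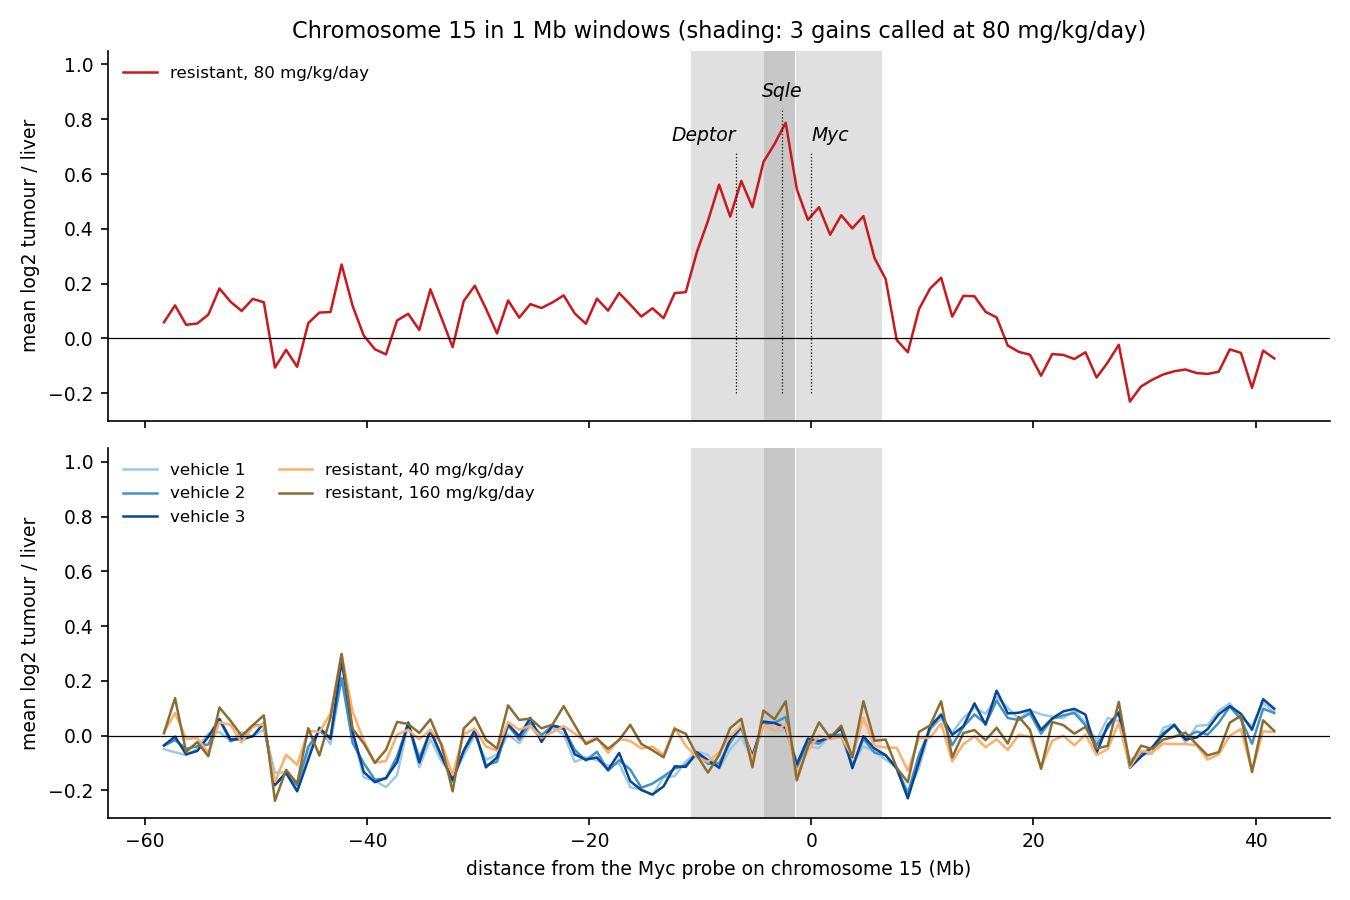
Mean log2 ratio of tumour to liver DNA in 1 Mb windows along chromosome 15, by distance from the Myc probe in Mb, for the tumour at 80 mg/kg/day (top) and the other 5 tumours (bottom). The curve at 80 mg/kg/day rises from about the level of its surroundings at the left edge of the shaded gains. Its peak is 0.79, in the window that holds Sqle, where the other 5 tumours read between 0.022 and 0.13.

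Whole chromosome 6 gives a scale for these levels, because it was high in all 6 tumours: its mean was 0.48, 0.49 and 0.50 in vehicle tumours 1, 2 and 3 and 0.50, 0.47 and 0.51 at 40, 80 and 160 mg/kg/day. In the tumour at 80 mg/kg/day the first gain (0.49) and the third gain (0.42) were near its level of chromosome 6 (0.47), and the second gain (0.72) was above it. The highest gain of that tumour, on chromosome 1, had a mean of 2.05, so the chromosome 15 gains were low-level changes beside it. Just inside and just outside the call threshold of 0.3 in this tumour lay 2 segments of chromosome 16, with means of 0.32 and 0.26. With that tumour read by itself, no chromosome 15 segment lay near the threshold, the nearest being the third gain at 0.42 and the stretch distal to it at 0.12.

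**Figure D2:**
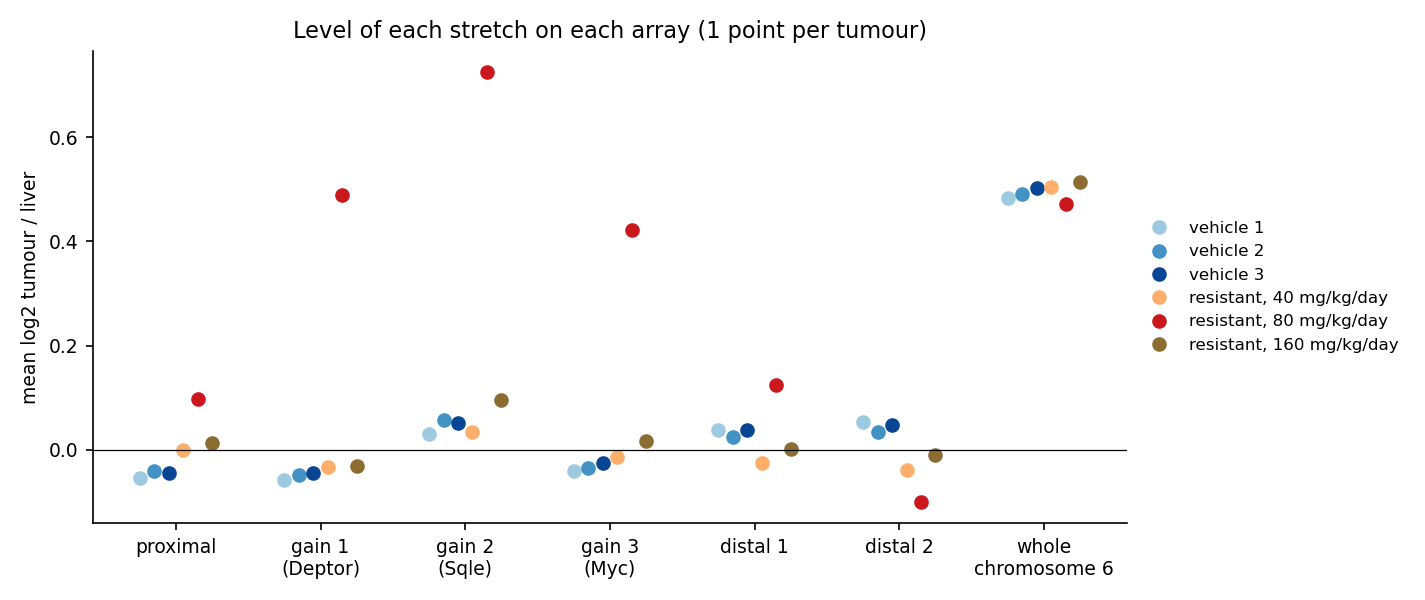
Mean log2 ratio of 6 stretches of chromosome 15 and of whole chromosome 6, with 1 point for each tumour. The points at 80 mg/kg/day lie at 0.49, 0.72 and 0.42 in the 3 gains, where no other tumour exceeds 0.096, while on chromosome 6 all 6 tumours lie between 0.47 and 0.51.

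Outside the gains the chromosome was not flat at 80 mg/kg/day. From chr15:3091692 to chr15:50939063, the 47.8 Mb before the gains with Rictor and Trps1, its level was 0.097, against -0.054, -0.041 and -0.044 in vehicle tumours 1, 2 and 3, 0.00012 at 40 mg/kg/day and 0.013 at 160 mg/kg/day. In the 11.1 Mb after the gains, up to chr15:79300170, it was 0.12, against 0.015 ± 0.027 (SD, n = 5) in the others. In the last 24.2 Mb, with Srebf2 and Ep300, it was -0.099, against 0.018 ± 0.040 (SD, n = 5). The tumour at 80 mg/kg/day was thus the highest of the 6 before and just after the gains and the lowest near the end of the chromosome, at levels below the size of a call. The low end depended on the background correction. With normexp signals the difference from the other 5 in the last stretch was 0.0031, where it was -0.12 otherwise. Before and just after the gains it stayed positive, at 0.10 and 0.083. In 1 Mb windows the tumour at 80 mg/kg/day was above all other 5 in 72 of 101 windows of the chromosome, against 11.5% of autosomal windows. Chromosomes 12 and 16 showed it too, in 104 of 116 and 62 of 96 windows. On chromosome 15 these were all 17 windows of the gains, 45 of 48 before them and 10 of 11 just after them, but 0 of the last 25.

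The 3 gains held 61 of the 637 chromosome 15 genes that had probes under a matched name. That is 9.58% of them, and over all autosomes 1712 of 15782 genes, or 10.8%, lay in gains at 80 mg/kg/day. All 61 had a higher mean at 80 mg/kg/day than in any other tumour, a pattern seen in 8.53% of autosomal genes, which follows from the choice of the stretch and is not read as support. Their levels in that tumour ran from 0.16 to 1.95 with a median of 0.52, and 55 of the 61 were at or above 0.3. Outside the gains 15 of 125 genes before them, 27 of 132 just after them and 8 of 319 in the last stretch were. In these stretches 15, 46 and 63 genes rested on 1 probe each. The share of all autosomal genes at or above 0.3 was not counted, so nothing is read from the counts outside the gains. In the other 5 tumours the median over the 61 genes was between -0.013 and 0.066. Of the 61 genes, 7 rested on 1 probe each, and the extremes were among genes with few probes: Trmt12, at 1.95 on 1 probe, also read 1.58 at 160 mg/kg/day, 0.94 at 40 mg/kg/day and 0.84 in vehicle tumour 2.

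**Figure D3:**
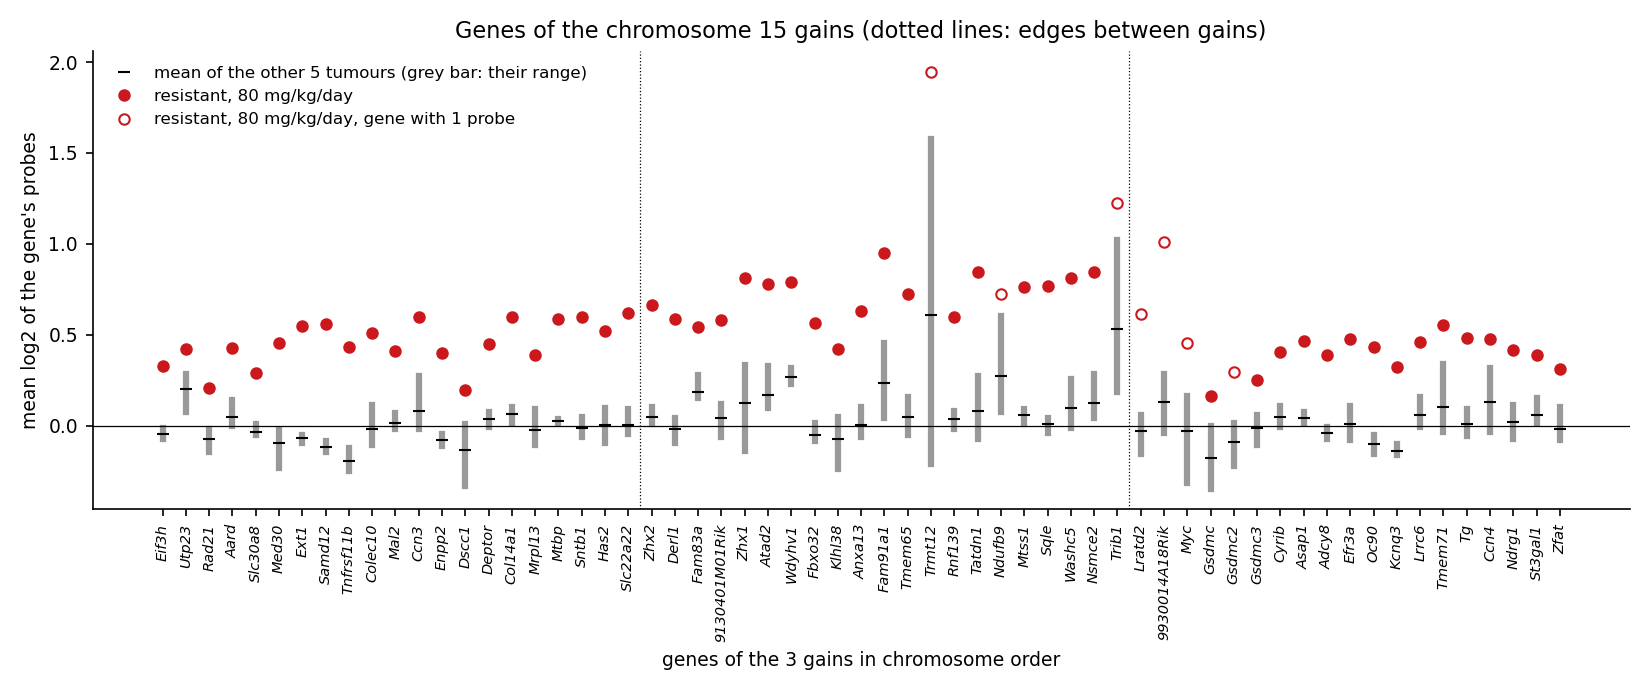
Mean log2 ratio over the probes of each of the 61 genes in the gains, in chromosome order: red circles are the tumour at 80 mg/kg/day (open where the gene has 1 probe), black marks the mean of the other 5 tumours and grey bars their range. Every red circle lies above its grey bar, and the genes of the second gain, from Zhx2 to Trib1, lie mostly above those on either side.

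Of the 3 genes that gave the stretch its interest, Deptor had the most probes. Its 20 probes averaged 0.078, 0.045 and 0.066 in vehicle tumours 1, 2 and 3, -0.0075 at 40 mg/kg/day, -0.0042 at 160 mg/kg/day and 0.45 at 80 mg/kg/day. The value at 80 mg/kg/day was the highest, and the other 5 lay together at 0.035 ± 0.040 (SD, n = 5). Over the 132 probes within 500 kb of Deptor the level at 80 mg/kg/day was 0.51, against 0.032 ± 0.014 (SD, n = 5). Single Deptor probes at 80 mg/kg/day ran from -0.37, at chr15:54963391-54963450, to 0.91, at chr15:55033152-55033211. The low one read between -0.47 and -0.36 on the other 5 arrays too.

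Sqle had 4 probes, which averaged -0.038, 0.017 and 0.0067 in vehicle tumours 1, 2 and 3, 0.0074 at 40 mg/kg/day, 0.042 at 160 mg/kg/day and 0.77 at 80 mg/kg/day. The other 5 tumours again lay close together, at 0.007 ± 0.029 (SD, n = 5). At 80 mg/kg/day the 4 probes, in chromosome order, read 0.30, 1.13, 0.49 and 1.15, and their order of high and low was shared with the tumour at 160 mg/kg/day, where they read -0.66, 0.70, -0.42 and 0.54. Within 500 kb of Sqle, 107 probes had a mean of 0.79 at 80 mg/kg/day, against 0.068 ± 0.037 (SD, n = 5), the highest of the 3 neighbourhoods.

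Myc itself was covered by 1 probe, at chr15:61816154-61816213. It read 0.16, -0.025 and 0.045 in vehicle tumours 1, 2 and 3, -0.014 at 40 mg/kg/day, 0.45 at 80 mg/kg/day and -0.32 at 160 mg/kg/day. The spread of the other 5 readings, 0.18 (SD, n = 5), shows how far 1 probe can stray, so the neighbourhood carries the measurement. Over 80 probes within 500 kb of Myc the mean was -0.016, -0.0018 and 0.013 in vehicle tumours 1, 2 and 3, -0.033 at 40 mg/kg/day, -0.014 at 160 mg/kg/day and 0.45 at 80 mg/kg/day. The Myc neighbourhood was at a lower level than that of Sqle in the same tumour, and near that of Deptor.

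Next to these 3 lay genes of several kinds. At the start of the first gain Eif3h, which encodes a subunit of a translation initiation factor, had 0.33 over 10 probes, and Rad21, a cohesin subunit, had 0.21 over 5. Ext1, an enzyme of heparan sulfate synthesis, read 0.55 over 37 probes against -0.070 ± 0.017 (SD, n = 5) in the other tumours. The genes with the most probes after it were Samd12 with 0.56 over 60 probes, Sntb1, a protein of the dystrophin complex, with 0.60 over 36, Slc22a22, a member of a transporter family, with 0.62 over 30, and Col14a1, a collagen, with 0.60 over 26. Has2, a hyaluronan synthase, had 0.52 over 3 probes.

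In the second gain Zhx2, a homeobox protein, had 0.66 over 21 probes and spanned the step between the first and second gain. Atad2, a chromatin-bound ATPase, had 0.78 over 7 probes. Mtss1, a membrane-bending and actin-binding protein, had 0.76 over 18 probes, against 0.059 ± 0.037 (SD, n = 5). Nsmce2, a SUMO ligase of the SMC5/6 complex, had 0.85 over 28 probes, which was the highest mean among genes of the gains with 10 or more probes. Trib1, a pseudokinase, read 1.22 on 1 probe, but that probe also read 1.02 at 160 mg/kg/day and between 0.18 and 0.50 in the remaining 4 tumours.

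In the third gain Asap1, a regulator of Arf GTPases, had 0.47 over 41 probes, against 0.041 ± 0.023 (SD, n = 5), and Cyrib, a Rac1-binding protein, had 0.41 over 19. Kcnq3, a potassium channel, had 0.32 over 39 probes against -0.14 ± 0.024 (SD, n = 5), so its low level at 80 mg/kg/day went with low readings of the same probes on the other arrays. Adcy8, an adenylate cyclase, had 0.39 over 30 probes. Tg, the precursor of thyroid hormone, had 0.48 over 27. Ndrg1, a gene that MYC proteins are known to repress, had 0.41 over 5. Genes beyond the last edge were lower: Khdrbs3, an RNA-binding protein, read 0.095 over 19 probes, Ptk2, focal adhesion kinase, 0.24 over 35, and Ago2, the Argonaute nuclease, 0.28 over 9.

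Elsewhere on the chromosome, Rictor, which defines the second mTOR complex, read 0.10 over 13 probes, Srebf2, the transcription factor of cholesterol genes, 0.0073 over 13, and Ep300, a histone acetyltransferase, -0.073 over 10. Of 32 chromosome 15 genes on a fixed list, 29 had probes, and 11 of these were in gains at 80 mg/kg/day and 0 in losses, against 10.8% and 5.19% of autosomal genes. The list holds Deptor, Sqle and Myc and was drawn up with the gains known, so nothing is read from this count. No probe carried the names Trio, Pvt1 or Sox10.

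The 4 edges of the gains were not equally sharp. Over the 50 probes on each side, the level at 80 mg/kg/day rose from 0.17 to 0.34 at the first edge, between Trps1 and Eif3h, where the steps on the other arrays were between -0.041 and 0.072. Inside Zhx2, at the second edge, it went from 0.58 to 0.67, a step of 0.090, and vehicle tumours 1 and 3 had steps of 0.090 and 0.091 at the same place. Between Trib1 and Lratd2, at the third edge, it fell by 0.28, and the other arrays fell too, by 0.084 to 0.22. Between Zfat and Khdrbs3, at the fourth edge, it fell by 0.18, with falls of 0.029 to 0.16 elsewhere. Another step, from 0.22 to -0.080 between Csnk1e and Kcnj4, separated the last stretch, and there the other arrays fell by 0.046 to 0.12. At 3 of the 4 edges of the gains all 6 arrays stepped in the same direction, so the levels and not the exact edge positions are read here.

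For that reason the other 5 tumours were also subtracted from the tumour at 80 mg/kg/day probe by probe, a step chosen after seeing the data. It lowered the SD between neighbouring probes from 0.28 to 0.10, and 8 gained segments were then called in place of 3. For the calls the difference was centred again on its autosomal median, and the differences below are without that step. The gained stretch ran from chr15:50826824 to chr15:68634372, a little beyond the edges found without subtraction. From the left, the difference was 0.38 with Eif3h and Rad21, 0.63 with Ext1 and Samd12, 0.46 with Deptor and Col14a1, 0.59 with Sntb1, Has2 and Zhx2, 0.71 with Mtss1, Sqle and Nsmce2, 0.67 with Trib1 and Lratd2, 0.45 with Myc, Asap1 and Adcy8, and 0.34 with Ndrg1, St3gal1 and Zfat. Sqle therefore lay in the highest of these levels, and Deptor and Myc lay in lower ones. With only the 3 vehicle tumours subtracted, the gained stretch ran from chr15:52333641 to chr15:68634372. Eif3h and Rad21 then lay in an uncalled segment, whose centred mean of 0.29 was just below the call threshold of 0.3. That segment, chr15:41831111-52313007 with 626 probes, lay mostly before the gains. With the other 5 tumours subtracted, the uncalled segment just before the gained stretch, chr15:41717886-50804014 with Trps1, had a difference of 0.22. The level before the gains thus rose toward them.

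**Figure D4:**
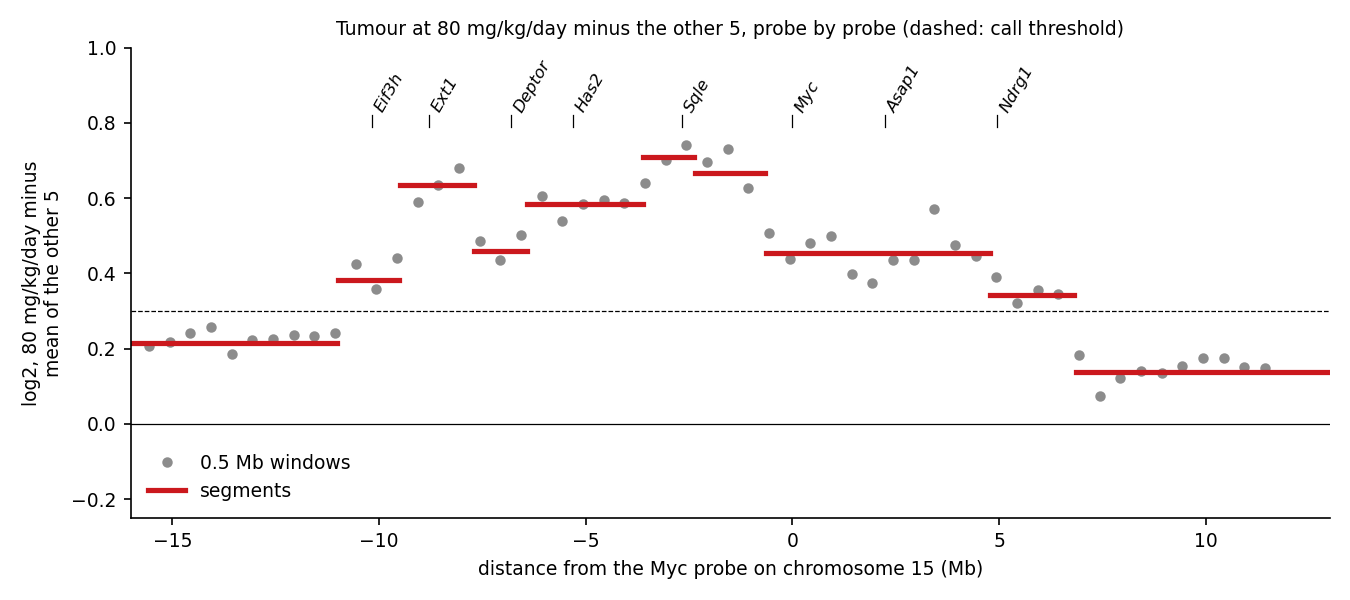
Log2 ratio at 80 mg/kg/day minus the mean of the other 5 tumours, around the Myc probe: grey points are 0.5 Mb windows, red lines are segments of the probe-by-probe difference, and the dashed line is the call threshold of 0.3. The segments climb to 0.71 at Sqle, with a lower step of 0.46 around Deptor, and fall to 0.45 at Myc and 0.14 beyond the gains.

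The lower step around Deptor covered chr15:54111847-55388600, with 136 probes from Colec10 to Mrpl13. At 80 mg/kg/day its level was 0.47, between 0.54 in the segment before it and 0.59 in the segment after it. In the other 5 tumours the mean over these 3 segments was -0.092, 0.012 and 0.0072 in the same order, so they showed no dip at Deptor. The fall of the difference from 0.63 to 0.46 on the left thus combined 2 changes. The tumour at 80 mg/kg/day fell from 0.54 to 0.47, and the mean of the others rose from -0.092 to 0.012. The step did not form a segment of its own when only the vehicle tumours, or only the tumours at 40 and 160 mg/kg/day, were subtracted, although the differences from those tumours were 0.46 and 0.45 there, against 0.65 and 0.61 before it and 0.59 and 0.58 after it.

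Pathway lists show how much of each partner network changed copy number in the same tumour. Of 14 measured genes of the MYC network, 3 lay in gains and 1 in a loss at 80 mg/kg/day, against 10.8% and 5.19% of all autosomal genes. Those in gains were Myc, Mga, a repressor that pairs with the MYC partner MAX, at 0.45, and Mxd1, also a MYC antagonist, at 0.40. Mxd1 lies on chromosome 6 and was in a gain in all 6 tumours, and Mga was also gained at 160 mg/kg/day. The gene in a loss was Mxi1, another antagonist, at -0.33, which was also lost at 160 mg/kg/day. The list's median was 0.032, against 0.015 over all genes with probes.

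Of 23 measured genes of cholesterol synthesis and its control, 2 were in gains and 3 in losses at 80 mg/kg/day. The shares over all autosomal genes were 10.8% and 5.19%, and these leave out chromosome X. The list's median was 0.042. The gains were Sqle and Insig2, which holds back the SREBP pathway, at 0.65, and Insig2 was gained at 160 mg/kg/day too. The losses were Tm7sf2, Ebp and Nsdhl. Tm7sf2 read -0.095 on its 1 probe, in a lost segment of chromosome 19. It was also in a loss at 160 mg/kg/day, where it read -0.32. Ebp, at -0.58, and Nsdhl, at -0.78, both lie on chromosome X and were also lost at 40 mg/kg/day. Of 18 genes of the mTOR complexes and their control, 1 was in a gain and 1 in a loss, against the same 10.8% and 5.19%. The gene in a gain was Deptor. The gene in a loss was Sgk1, a kinase downstream of the second complex. Its 1 probe read -1.05 at 80 mg/kg/day, -1.09 at 40 and -1.15 at 160. Among 11 measured genes of a list drawn up around Myc, 8 were in the gains and 3 (Khdrbs3, Ago2 and Ptk2) beyond the last edge, a count that the choice of the stretch fixes.

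The other resistant tumours were compared with vehicle in 1 Mb windows of the chromosome, with the tumour at 80 mg/kg/day left out. Inside the gains this comparison is a description, because the stretch was chosen as gained against all other 5 tumours. There the tumours at 40 and 160 mg/kg/day differed from vehicle by -0.044 to 0.11 over 17 windows, with a median of 0.020. The window at the top of that range, with Tg and Ndrg1, averaged -0.017 in vehicle tumours, 0.066 at 40 mg/kg/day, 0.13 at 160 mg/kg/day and 0.45 at 80 mg/kg/day.

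Outside the gains, 24 of 84 windows of the chromosome were higher and 14 lower in the tumours at 40 and 160 mg/kg/day (limma, two-sided, Benjamini-Hochberg adjusted p below 0.05). Of 2396 autosomal windows 22.4% passed, 13.4% higher and 9.02% lower. With the 17 windows of the gains, where the comparison is a description, 39 of 101 windows of chromosome 15 passed, 25 higher and 14 lower. Most of the higher ones lay before the gains (23 of 48 windows) and most of the lower ones toward the distal end (11 of the last 25). In the window with the smallest adjusted p, from chr15:46000001, vehicle tumours 1, 2 and 3 read -0.20, -0.19 and -0.20, the tumours at 40 and 160 mg/kg/day -0.047 and -0.030, and the tumour at 80 mg/kg/day 0.080. The groups did not overlap there, and the difference was 0.16 (SE 0.012, limma adjusted p = 0.011). In the window from chr15:78000001, with Rac2 and Lgals1, the difference was -0.14 (SE 0.020, limma adjusted p = 0.030).

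**Figure D5:**
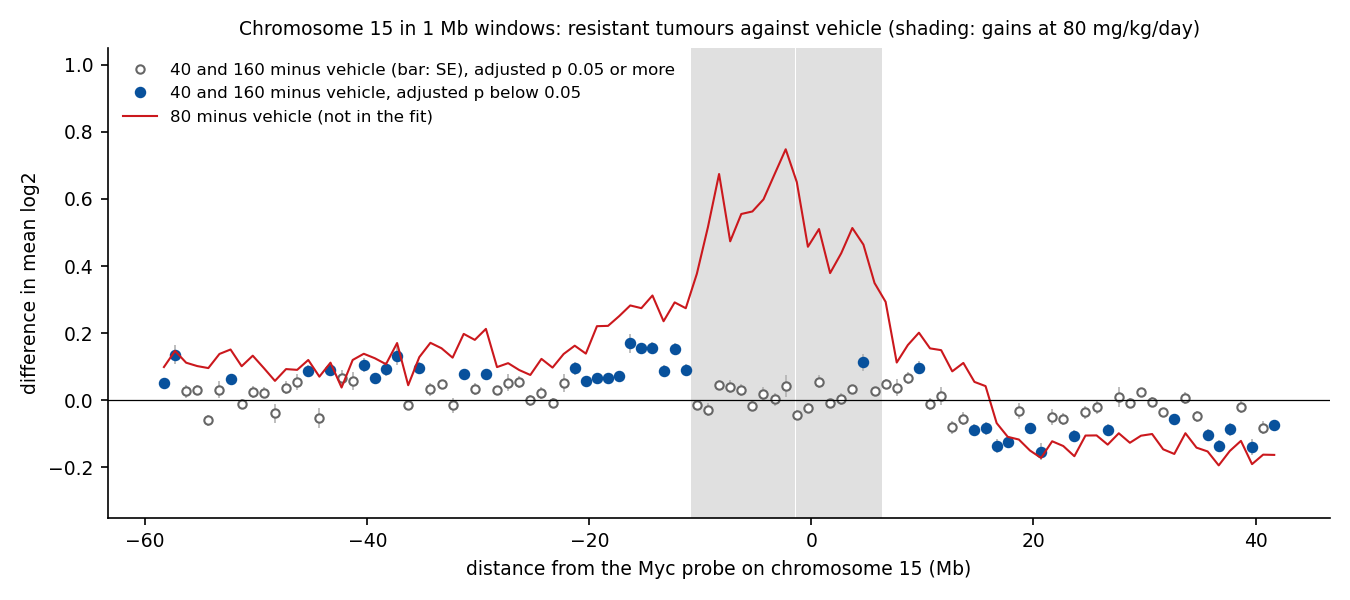
Difference in mean log2 ratio between the tumours at 40 and 160 mg/kg/day and the 3 vehicle tumours in 1 Mb windows of chromosome 15 (points with SE; filled where the limma adjusted p was below 0.05), with the tumour at 80 mg/kg/day minus vehicle as a red line. The points stay within 0.11 of 0 inside the shaded gains, where the red line lies far above them. The filled points before the gains lie above 0 and those of the last stretch lie below it.

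The fit had 3 residual degrees of freedom, and its calls depended on single arrays. Without vehicle tumour 1, 2 or 3, 0 windows of chromosome 15 passed (limma; 42, 44 and 43 had an unadjusted p below 0.05), and without the tumour at 40 or at 160 mg/kg/day 64 and 57 passed. In the last 2 fits the resistant side is a lone tumour, which is assumed to vary like the vehicle tumours. With array weights, an alternative added after seeing the data, 0 passed (23 unadjusted), and with normexp signals 0 passed (29 unadjusted). Centring on autosomes other than 6, 10, 15, 16 and 19 turned the genome-wide split from 321 higher and 216 lower into 273 and 280, and left 22 higher and 16 lower on chromosome 15. The SD between neighbouring probes was higher in all 3 resistant arrays than in any vehicle array. The median SD over spots of probes printed 3 times was not: it was 0.056, 0.046 and 0.059 at 40, 80 and 160 mg/kg/day. In vehicle tumours 1, 2 and 3 it was 0.050, 0.060 and 0.059. The part of the SD between neighbouring probes in these differences was not tested.

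The height of the gains depended on the background correction. With normexp signals the differences at 80 mg/kg/day from the other 5 were 0.27, 0.27 and 0.22 in the first, the second and the third gain, in the same direction, and 1 segment with 6 probes was called, without Deptor, Sqle or Myc. On that array the levels of all called autosomal segments shrank to 0.351 of their size (slope over 41 segments), while on the other 5 arrays the slope was between 0.77 and 1.03. No other alternative took Deptor, Sqle or Myc out of a called gain.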

How the data were processed

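DNA of 6 tumours was measured on Agilent arrays against liver DNA. The intensity values were made by the authors with Feature Extraction 9.5.3.1 (build mm8, per the file headers), which subtracts background and normalizes dyes. The authors' deposited value table held log10 ratios in the direction of the scanner files (r of 0.9996 or more on each array), with column medians of -0.0109 to -0.00158. They were used as an alternative. The authors' deposited RNA intensity values were not analysed here.

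Control spots and outliers were left out, spots of 1 probe were averaged, and the autosomal median of each array was subtracted from its log2 ratios, with no loess. Segments were found array by array by least squares with a penalty (3 times the usual per breakpoint). The limma test (version 3.58.1, R 4.3.3) used 1 Mb windows holding 5 or more probes. The rest was computed in Python 3.11.15 (pandas 2.3.3, numpy 2.4.6, numba 0.67.0). Segmentation and window test were tested on simulated data. Probes were named through accessions or symbols of RefSeq, and 4282 of 9162 chromosome 15 probes matched a gene. Named genes are fixed chromosome 15 genes and lists, up to 6 genes with most probes per gain, and edge genes; others were named after seeing their values. The members and lists were chosen with earlier results of these data known. The arrays shared 1 scanner and day and had a slide each, so no batch could be compared. No source says that tumours came from separate donors, so p-values measure the spread between these tumours. The number of arrays limits the precision.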

Additional observations from a re-analysis of the deposited data

How the results depend on the processing

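No paired analysis was possible because the resistant tumours carry doses and not replicate numbers shared with the vehicle tumours, with 1 tumour per dose. A correction for GC content and the test of RNA for chromosome 15 genes, with its 4 alternatives, were not run, since probe sequences and names of RNA probe sets were not used here. The authors' value table, the other centring and the restriction to bright probes changed no count of the gains, lists or windows by over 1.5 times and no level of a gain by more than the spread of the other 5 tumours. A penalty on the probes of each chromosome, run for the gains alone, changed no count of their probes, segments or genes by over 1.5 times.

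Normexp signals left 6 probes, 1 segment and 1 gene in gains of chromosome 15 (1415, 3 and 61 otherwise). The differences at 80 mg/kg/day were then 0.27, 0.27 and 0.22 in the 3 gains, and 0.22, 0.28 and 0.22 around Deptor, Sqle and Myc (0.48, 0.72 and 0.46 otherwise), and 0 genes of each list lay in gains or losses. A penalty of 5 times the usual gave 1 gained segment. Subtracting the other 5 tumours gave 8, and subtracting the tumours at 40 and 160 mg/kg/day gave 5. After subtracting the other 5 tumours, 1 gene of the MYC network lay in a gain and 0 in a loss, and 1 of cholesterol synthesis in a loss. With a call threshold of 0.25, 2 mTOR genes lay in losses. With 250 kb on each side the difference around Deptor was 0.46, and with 1000 kb it was 0.51 around Deptor and 0.49 around Myc. Leaving out 1 of the other 5 tumours gave 0.53 to 0.54, 0.66 to 0.68 and 0.44 to 0.45 in the 3 gains, and 0.47 to 0.48, 0.72 to 0.74 and 0.45 to 0.46 around Deptor, Sqle and Myc.

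In the window test of the tumours at 40 and 160 mg/kg/day, 537 autosomal windows passed. The number was 0 with normexp signals (562 at an unadjusted p below 0.05), 898 with windows of 0.5 Mb, 332 with windows of 2 Mb and 28 with array weights. Leaving out 1 tumour gave 0 to 1464 over the autosomes and 0 to 64 on chromosome 15, and without a vehicle tumour 2 residual degrees of freedom were left. On chromosome 15, 39 passed, against 0 with normexp signals, 23 with windows of 2 Mb and 0 with array weights. The cause of these changes was not tested.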

Other observations

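Probe-to-probe deviations on chromosome 15 were shared between arrays. Over 8792 probes with a log2 ratio within 1 of 0, the deviations of the tumour at 80 mg/kg/day from its local level correlated with those at 40 mg/kg/day (r = 0.89), at 160 mg/kg/day (r = 0.89) and in vehicle tumours 2 (r = 0.81), 3 (r = 0.73) and 1 (r = 0.29). The deviations at 40 and 160 mg/kg/day correlated with each other at r = 0.94. With vehicle tumours 1, 2 and 3, r was 0.27, 0.80 and 0.72 at 40 mg/kg/day. At 160 mg/kg/day it was 0.18, 0.77 and 0.68. The part of such shared deviations in the window test was not tested. These are correlations across probes, which are not independent replicates, and all arrays share the liver DNA and the probes. The 68 chromosome 15 probes printed 3 times had a median SD over spots of 0.046 to 0.060 on the 6 arrays.

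Single probes at 2 places stood apart at 80 mg/kg/day after the other 5 tumours were subtracted. The probe at chr15:59441410-59441469, in the second gain between Nsmce2 and Trib1, read 1.99 at 80 mg/kg/day and between -0.021 and 0.13 in the other 5 tumours. The probe at chr15:75426391-75426440 read 2.37, with 0.71 at 160 mg/kg/day, 0.53 at 40 mg/kg/day and -0.79 to 0.20 in vehicle tumours.

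Of the 9162 chromosome 15 probes, 22 were at or beyond 1 in size on all 6 arrays, 18 high and 4 low, or 0.24% against 0.284% of autosomal probes. The probe at chr15:19055479-19055538 read between 5.09 and 6.25, and a probe of Cyb5r3, which encodes a cytochrome b5 reductase, between -2.66 and -2.37.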
